A study of Homo sapiens with 6 samples.

Results

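The p53 pathway was described through 9 genes that regulate p53 or are known to respond to it: MDM2, MDM4, TP53I3, TP53INP1, BTG2, PPM1D, RRM2B, ZMAT3 and GADD45A. Each was found by its symbol in the table of gene counts, as 9 of 48114 rows, and all 9 passed the filter on low counts (10 or more normalized counts in 3 or more of the 6 libraries). RNA sequencing was done on TC-71, an established human Ewing sarcoma cell line whose genotype is labelled WT and which is reported to lack functional p53. Cells were treated for 16 h with BEZ235, which blocks PI3K, a kinase of membrane lipids, and mTOR, a kinase that drives growth, or with dimethyl sulfoxide (DMSO), its solvent. Both groups had 3 biological replicates of this 1 line, and the dose was not among the labels used here.

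p53 is a transcription factor that is held at a low level by MDM2, a ubiquitin ligase that marks it for destruction, and by MDM4, a related protein that binds MDM2 and masks the activating part of p53. After DNA damage or other stress, p53 is released and raises genes of arrest, repair and death, and also MDM2 and the phosphatase PPM1D, which switch the response off again. Several of these genes are also known to respond to other stress and growth signals without p53.

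The recovered reads ran from 184790722 to 233767211 per library. Log2 values of libraries of the same group had a Pearson's r across genes between 0.982 and 0.987, and those of libraries of different groups between 0.927 and 0.939. Mitochondrial transcripts (17 rows) made up 0.507 to 0.706% of normalized counts with BEZ235 and 2.82 to 3.55% with DMSO, a difference whose part in the values given here was not tested. All 10 markers of Ewing sarcoma cells, NKX2-2, NR0B1 and CD99 among them, had at least 10 normalized counts in every library. Their levels were not constant: 5 were higher and 4 lower with BEZ235 at a limma adjusted p under 0.05. Among all tested genes, 33.1% were higher and 33.2% lower. These 10 markers summed to 427312 to 469980 normalized counts with DMSO and 345882 to 358578 with BEZ235. Of 14 markers of blood, epithelial, endothelial, fibroblast and liver cells, 5 stayed below 10 in every library (2 of these at 0), and 6 reached 10 in every library. The fibroblast genes COL1A1, COL3A1 and PDGFRB were the most abundant of these. The list summed to 31111 to 32026 normalized counts with DMSO and 39164 to 40971 with BEZ235, and its part in the results was not tested. In such bulk samples fewer cells of a type and less RNA per cell cannot be told apart.

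RefSeq places the start sites of MDM2 at 2 promoters, an upstream one and one inside the gene that is known to be driven by p53. Their sequences are shown because MDM2, the gene in which p53 feedback is best known, was the 1 member that did not pass the test. MDM2 was counted as 1 row that spans both promoters, so their transcripts were not told apart. Upstream stretches were read from RefSeq windows of 300 bases (GRCh38.p14), which 6 of the 9 members matched; GADD45A, TP53INP1 and RRM2B were not matched. The stretches shown lie on the + strand at chr12:68807922-68808171, chr12:68808767-68809001 and, for comparison with a member that fell, chr1:203305269-203305490. Each ends before the gene's own first exon there. Capitals mark matches to the p53 consensus element, which is built of 2 half-sites of 10 bases, with at most 1 base between them and at most 3 mismatches in all.
MDM2 upstream promoter: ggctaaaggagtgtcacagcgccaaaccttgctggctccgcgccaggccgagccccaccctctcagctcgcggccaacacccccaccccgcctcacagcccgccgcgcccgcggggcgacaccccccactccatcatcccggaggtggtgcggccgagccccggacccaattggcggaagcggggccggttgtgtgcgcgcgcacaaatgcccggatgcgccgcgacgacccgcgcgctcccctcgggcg
MDM2 internal promoter: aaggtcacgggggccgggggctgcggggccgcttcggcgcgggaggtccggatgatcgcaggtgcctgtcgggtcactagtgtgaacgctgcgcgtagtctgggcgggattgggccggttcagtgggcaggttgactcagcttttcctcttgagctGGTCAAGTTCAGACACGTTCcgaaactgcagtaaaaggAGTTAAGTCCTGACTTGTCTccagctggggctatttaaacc
BTG2 promoter: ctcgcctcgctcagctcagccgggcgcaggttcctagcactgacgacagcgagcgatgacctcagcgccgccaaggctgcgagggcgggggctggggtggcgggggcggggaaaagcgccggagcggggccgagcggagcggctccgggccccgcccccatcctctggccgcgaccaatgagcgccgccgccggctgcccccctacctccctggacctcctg
The internal MDM2 promoter held 2 matches, at 94 and 56 bases upstream of the start site at 68809017, with 2 and 3 mismatches. The consensus element, unlike these 2 matches, reads alike on both strands. Across all 35116 RefSeq windows, 9.75% held a match with at most 3 mismatches and 1.34% held one with at most 2. An overlapping window of the same promoter, with a start site at 68809024, held the same matches. The remaining windows, those of upstream MDM2, MDM4, TP53I3, BTG2, PPM1D and ZMAT3, held none. That says only that these letters are not in those windows. Whether the matches bear on any change in counts was not tested.

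With BEZ235, 7 of the 9 genes fell (GADD45A, TP53INP1, ZMAT3, BTG2, RRM2B, MDM4 and PPM1D), 1 rose (TP53I3) and 1 did not pass the test (MDM2). Rises and falls in normalized counts are relative to the other genes of a library, so a change in total RNA per cell would not be seen. Changes were broad in this comparison: among all 23923 tested genes, 66.3% were called, 33.2% lower and 33.1% higher. That balance moved with the scaling, from 7951 lower and 7912 higher to 8676 lower and 6700 higher with total-count scaling, and to 7603 lower and 8403 higher with quantile normalization. The share of members called lower was 77.8%. The members were chosen with earlier results of these data known, so this share describes them and was not tested as an excess. The median log2 fold change of the 9 genes was -0.81, and that of all tested genes was -0.00085. At least 2-fold falls were seen for 4 members (GADD45A, TP53INP1, ZMAT3 and BTG2), and 13.6% of tested genes fell by that much; 1 member, TP53I3, rose at least 2-fold, as did 12.7% of tested genes. BEZ235 libraries lay below all DMSO libraries for 7 members and above them for 1, where 35.4% of tested genes lay below and 35.5% above (70.9% in all).

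**Figure D1:**
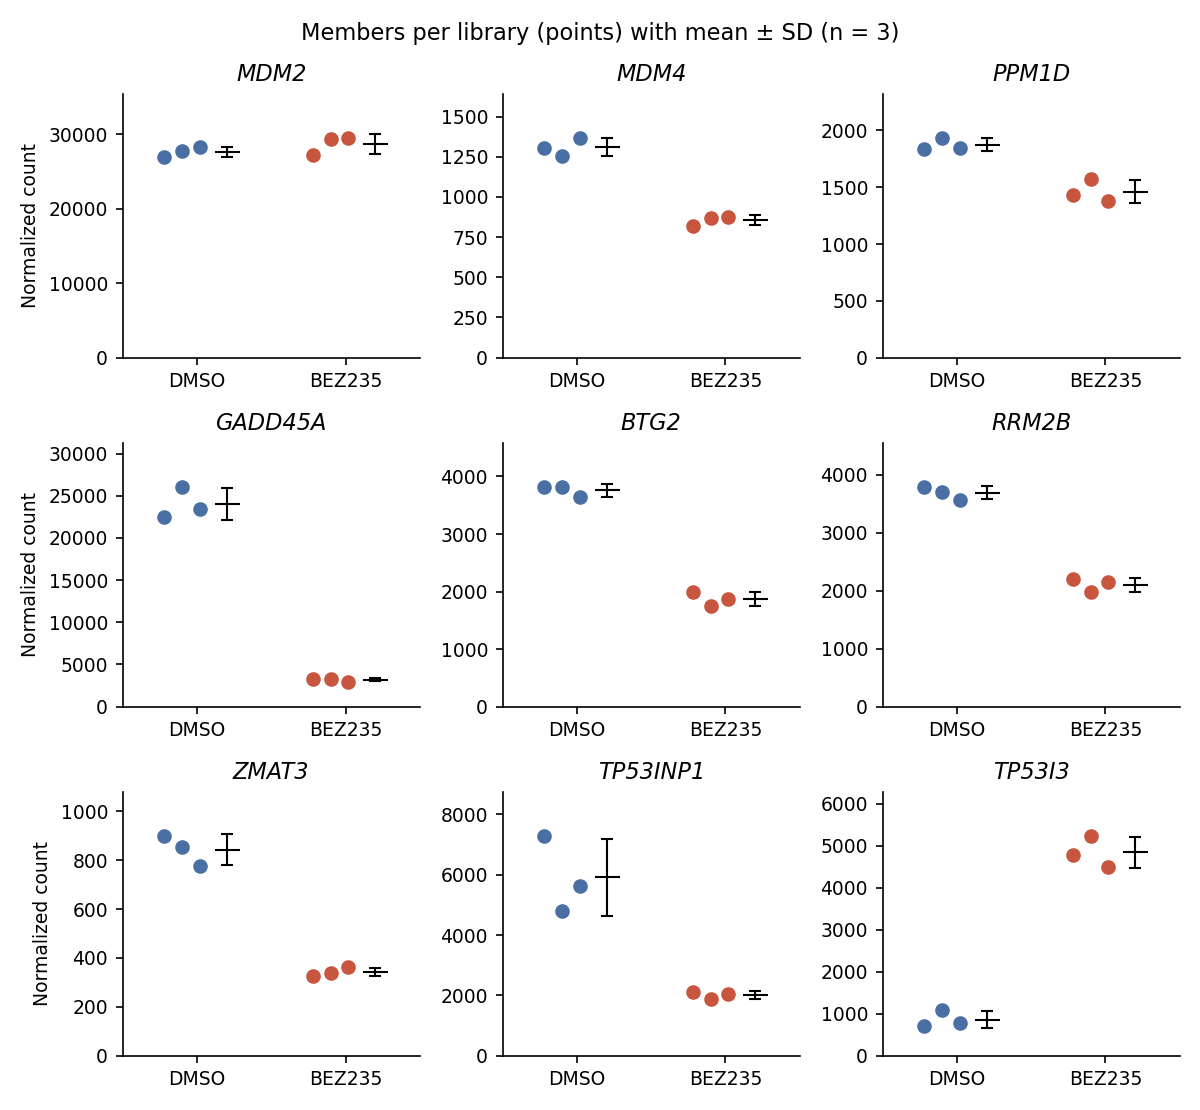
Normalized counts of the 9 genes (vertical axes, each starting at 0) in the 3 DMSO and 3 BEZ235 libraries (points), with the mean ± SD beside them. The groups overlap for MDM2, BEZ235 lies above DMSO for TP53I3, and BEZ235 lies below DMSO for the other 7 genes.

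Of the regulators of p53, MDM2 (FASTDB gene GSHG0009214, hg38 chromosome 12, 68801459 to 68850686, + strand) had normalized counts of 26947, 27714 and 28292 in the DMSO libraries and 27189, 29415 and 29552 in the BEZ235 libraries. The groups overlapped, since the lowest BEZ235 library lay below 2 of the DMSO libraries. Its log2 fold change was 0.05 (SE 0.052, limma adjusted p = 0.385). The 95% interval of the fold ran from 0.958 to 1.12. With total-count scaling the log2 fold change was -0.04 (adjusted p = 0.608). A short row without a symbol lies inside the gene (68841026 to 68843202) and had 1641 ± 77.3 normalized counts with DMSO and 1831 ± 47.0 with BEZ235 (SD, n = 3, limma adjusted p = 0.0614).

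MDM4 (GSHG0001580, chromosome 1, 204516378 to 204716424, + strand) had 1306, 1255 and 1370 normalized counts with DMSO and 821, 869 and 878 with BEZ235. Every BEZ235 library was below every DMSO library. MDM4 fell by 0.61 on the log2 scale (SE 0.079, limma adjusted p = 3.85e-05). Its row reaches past the end of the gene in GENCODE v29 at 204558120, and 0 rows overlapping it were expressed at a mean of 10 or more. Within libraries, the log2 ratio of MDM2 to MDM4 normalized counts was 4.40 ± 0.056 with DMSO and 5.07 ± 0.017 with BEZ235 (SD, n = 3). This ratio does not depend on how libraries are scaled, and it was higher by 0.67 (SE 0.034) with BEZ235. The exact two-sided permutation test gave p = 0.1, the smallest p that 3 against 3 libraries allow.

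PPM1D (GSHG0018435, chromosome 17, 60600183 to 60666280, + strand) encodes the phosphatase WIP1, which removes activating phosphates from p53 and from the kinases upstream of it. Its normalized counts were 1837, 1937 and 1844 with DMSO and 1434, 1570 and 1381 with BEZ235. The groups did not overlap, but this was the smallest of the called changes in the 9 genes. PPM1D fell by 0.36 on the log2 scale (SE 0.073, limma adjusted p = 0.00125), to 0.78 times the DMSO level.

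Among the genes of growth arrest, GADD45A (GSHG0000703, chromosome 1, 67685177 to 67688336, + strand) encodes a small protein that binds PCNA and stress kinase pathways and holds cells before mitosis. It had 22512, 26090 and 23371 normalized counts with DMSO and 3325, 3224 and 2968 with BEZ235. The groups were far apart, and no row overlaps it. GADD45A fell by 2.92 on the log2 scale (SE 0.068, limma adjusted p = 1.86e-10), which is 7.55-fold. Only 1.91% of tested genes had a lower log2 fold change.

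GADD45B, a related gene, fell by 0.95 on the log2 scale (SE 0.081, limma adjusted p = 1.51e-06), from 3958 ± 230 to 2058 ± 209 normalized counts. The log2 ratio of GADD45A to GADD45B within libraries was 2.60 ± 0.167 with DMSO and 0.63 ± 0.149 with BEZ235 (SD, n = 3), a difference of -1.97 (SE 0.129). All 3 BEZ235 libraries lay below all 3 DMSO libraries in this ratio (exact two-sided permutation p = 0.1, the smallest possible). GADD45G, the third gene of the family, did not reach the filter.

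BTG2 (GSHG0001562, chromosome 1, 203305519 to 203309602, + strand) encodes an antiproliferative protein that recruits the enzymes that shorten mRNA tails. Its normalized counts were 3825, 3825 and 3635 with DMSO and 1992, 1746 and 1870 with BEZ235. Replicates were close and the groups did not overlap. BTG2 fell by 1.01 on the log2 scale (SE 0.067, limma adjusted p = 2.21e-07). A row without a symbol inside it (203307621 to 203308553) changed by -1.01 as well (SE 0.087, limma adjusted p = 1.67e-06). The opposite-strand gene FMOD spans BTG2 but had only 27.3 ± 2.34 normalized counts with DMSO and 8.81 ± 10.5 with BEZ235 (SD, n = 3). FMOD was called lower too (limma adjusted p = 0.0313). Its BEZ235 libraries held 20.85, 1.97 and 3.62 normalized counts, near the floor, so no fold is given for it.

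Of the 4 relatives of BTG2 in the chosen list of paralogs, 3 fell (BTG3, BTG1 and TOB1) and 1 rose (TOB2). Among all tested genes, 33.2% were called lower and 33.1% higher. BTG3 went from 14777 ± 562 to 3175 ± 64.0 normalized counts, and BTG1, whose row also carries LINC01619, from 12903 ± 144 to 4943 ± 320 (SD, n = 3). Their log2 fold changes were -2.22 (SE 0.053) and -1.39 (SE 0.058), with limma adjusted p of 1.93e-10 and 6.68e-09. TOB1 and TOB2 were chosen after their values were seen. TOB1 fell by 0.98 (SE 0.098, limma adjusted p = 5.41e-06), and TOB2 rose by 0.26 (SE 0.060, limma adjusted p = 0.0027), from 8924 ± 196 to 10703 ± 763 normalized counts.

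Among genes of DNA supply and repair, RRM2B (GSHG0042610, chromosome 8, 102204501 to 102239118, - strand) encodes the p53-inducible small subunit of ribonucleotide reductase, the enzyme that makes deoxynucleotides. It had 3800, 3712 and 3573 normalized counts with DMSO and 2196, 1971 and 2155 with BEZ235. All BEZ235 libraries were lower. RRM2B fell by 0.81 on the log2 scale (SE 0.065, limma adjusted p = 9.29e-07).

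RRM2, the small subunit of dividing cells, fell by 0.78 (SE 0.057, limma adjusted p = 4.57e-07), from 12960 ± 673 to 7527 ± 310 normalized counts. RRM1, the large subunit that both small subunits share, was chosen after its values were seen and fell by 0.58 (SE 0.050, limma adjusted p = 1.74e-06). The log2 ratio of RRM2B to RRM2 within libraries was -1.81 ± 0.108 with DMSO and -1.84 ± 0.129 with BEZ235 (SD, n = 3). The difference of -0.03 (SE 0.097) was smaller than the spread between replicates (exact two-sided permutation p = 0.6), and its sign turned without DMSO replicate 2 (0.015) and without BEZ235 replicate 2 (0.046). The row of RRM2 reaches past its end in GENCODE v29 at 10131419, and 0 overlapping rows were expressed at a mean of 10 or more.

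**Figure D2:**
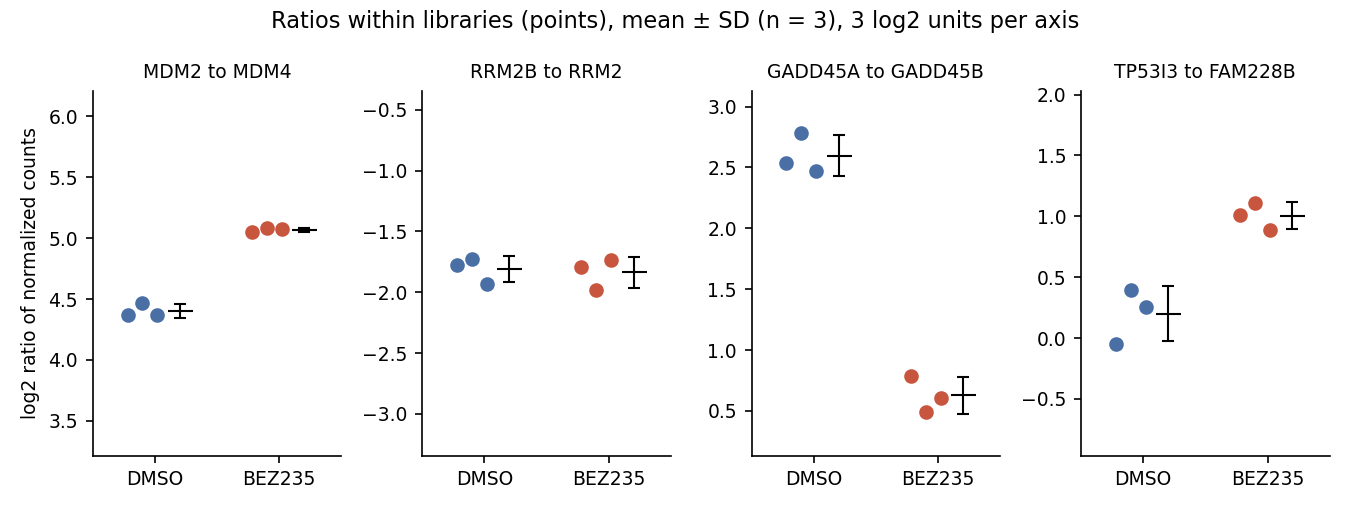
Log2 ratios of normalized counts within each library (points; vertical axes of equal span in log2 units) for 4 gene pairs in DMSO and BEZ235, with the mean ± SD (n = 3). The groups are apart for MDM2 to MDM4, GADD45A to GADD45B and TP53I3 to FAM228B, and overlap for RRM2B to RRM2.

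ZMAT3 (GSHG0031987, chromosome 3, 179017223 to 179072513, - strand) encodes a zinc finger RNA-binding protein that acts on splicing and mRNA stability. It was the member with the lowest counts in the BEZ235 libraries, with 901, 852 and 778 normalized counts with DMSO and 328, 337 and 362 with BEZ235. The groups did not overlap. ZMAT3 fell by 1.30 on the log2 scale (SE 0.104, limma adjusted p = 9.42e-07).

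Of the genes linked to death, autophagy and oxidative stress, 1 fell and 1 rose. TP53INP1 (GSHG0042572, chromosome 8, 94925972 to 94949378, - strand) encodes a stress protein that works in autophagy and, in the nucleus, with the kinase HIPK2 on p53. Its normalized counts were 7302, 4800 and 5633 with DMSO and 2114, 1878 and 2052 with BEZ235. The DMSO libraries were spread widely (coefficient of variation 21.6%), yet the lowest of them was above all BEZ235 libraries. TP53INP1 fell by 1.53 on the log2 scale (SE 0.125, limma adjusted p = 1.07e-06). It lies inside the row of NDUFAF6 on the opposite strand, which moved the other way by 0.89 on the log2 scale (SE 0.067, limma adjusted p = 5.93e-07). The labels used here do not say whether the counts kept strand.

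TP53I3 (GSHG0025134, chromosome 2, 24077182 to 24085052, - strand), also called PIG3, encodes a quinone oxidoreductase linked to reactive oxygen species. It had 710, 1080 and 777 normalized counts with DMSO and 4788, 5246 and 4501 with BEZ235. Every BEZ235 library was far above every DMSO library, although the DMSO libraries varied with a coefficient of variation of 23.1%. TP53I3 rose by 2.52 on the log2 scale (SE 0.134, limma adjusted p = 4.06e-08), a 5.74-fold change with a 95% interval from 4.67 to 7.05. Only 2.18% of tested genes had a higher log2 fold change.

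TP53I3 lies inside the row of FAM228B on the opposite strand (24076526 to 24169638), and FAM228B rose too. FAM228B went from 736 ± 84.8 to 2411 ± 28.5 normalized counts (SD, n = 3), or 1.72 on the log2 scale (SE 0.090, limma adjusted p = 3.70e-08). The log2 ratio of TP53I3 to FAM228B was 0.20 ± 0.225 with DMSO and 1.004 ± 0.110 with BEZ235, a difference of 0.80 (SE 0.145) with no overlap (exact two-sided permutation p = 0.1, the smallest possible). The 2 rows therefore did not rise in equal measure, but reads shared between them cannot be told apart without strand.

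**Figure D3:**
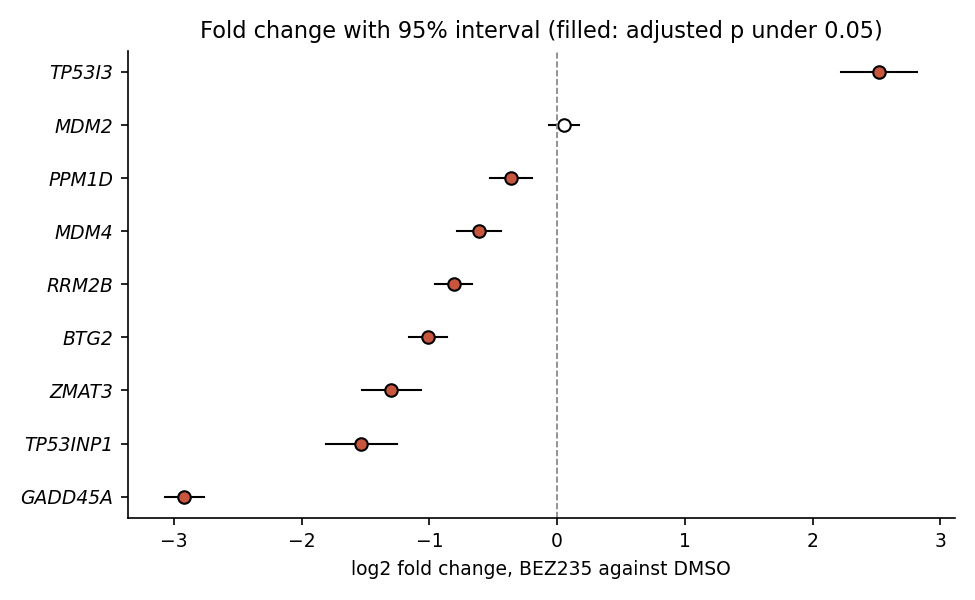
Log2 fold change of BEZ235 against DMSO (horizontal axis) with its 95% interval for each of the 9 genes, filled where the limma adjusted p was under 0.05. TP53I3 stands at 2.52, MDM2 at 0.05 with an interval across 0, and the other 7 genes lie between -0.36 and -2.92.

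Levels were compared between genes per kilobase of exon, with the union of GENCODE v29 exons as length, which understates genes with exons not used in these cells. The MDM2 row starts at 68801459, ahead of 68808176 in GENCODE, and the MDM4 row ends past its gene. For such rows this length may overstate the level. Reads shared with FAM228B may also add to TP53I3. With DMSO, GADD45A stood highest at 11595 ± 903 normalized counts per kilobase, followed by MDM2 at 2082 ± 50.8 and BTG2 at 1364 ± 39.9 (SD, n = 3). TP53INP1 was next at 1042 ± 224, then RRM2B at 666 ± 20.7. PPM1D and TP53I3, at 371 ± 11.0 and 370 ± 85.4, overlapped in their values, and MDM4 and ZMAT3 were lowest at 119 ± 5.21 and 87.5 ± 6.43. With BEZ235 the order changed at the top. MDM2 and TP53I3, at 2162 ± 99.9 and 2096 ± 163, overlapped, GADD45A followed at 1533 ± 88.9, and MDM4 and ZMAT3 again stood last at 77.8 ± 2.77 and 35.5 ± 1.81. TP53INP1 and RRM2B overlapped there, at 355 ± 21.6 and 380 ± 21.6.

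Other genes of the pathway were read from 5 lists, each set beside the 33.1% of tested genes called higher and 33.2% called lower. These lists too were chosen with earlier results of these data known. Of 24 genes of the p53 family and its regulators, 8 rose, 8 fell and 8 did not pass the test, with a median log2 fold change of 0.04. TP53BP1, a double-strand break protein that binds p53, rose by 1.12 (SE 0.054, limma adjusted p = 2.04e-08), and RPL23, a ribosomal protein known to bind MDM2, rose by 0.85 (SE 0.065). KMT5A, a methyltransferase that modifies p53 and histone H4, fell by 1.15 (SE 0.080), and TP53BP2, a p53-binding protein that favours death genes, fell by 0.84 (SE 0.077). The relatives of p53, TP63 and TP73, were chosen after their values were seen. TP63 fell by 0.45 (SE 0.126, limma adjusted p = 0.00815), and TP73 stood at 0.27 (SE 0.142, limma adjusted p = 0.113). The adjusted p of TP73 was 0.0457 in limma without the trend and ran up to 0.312 over the alternatives.

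Of 18 tested arrest and repair genes that p53 is known to raise, 11 fell, 7 of them at least 2-fold, 3 rose and 4 did not pass the test, with a median of -0.67. CDKN1A, the cyclin-dependent kinase inhibitor p21, fell by 2.70 (SE 0.094, limma adjusted p = 1.97e-09), and PLK3, a stress-responsive kinase, fell by 1.97 (SE 0.070), from 3256 ± 51.1 to 829 ± 46.9 normalized counts. XPC, which recognises damaged DNA, rose by 0.30 (SE 0.060), and CCNG1, a cyclin that recruits a phosphatase to MDM2, by 0.37 (SE 0.084).

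Of 16 tested death genes, 8 fell, 4 at least 2-fold, 4 rose and 4 did not pass the test, with a median of -0.24. Without IGFBP3, which was below 10 normalized counts in a DMSO library, 3 of 15 rose and the median was -0.28. PMAIP1 and BBC3, which encode the BH3-only killer proteins NOXA and PUMA, had log2 fold changes of -3.18 (SE 0.067, limma adjusted p = 1.10e-10) and -1.86 (SE 0.086, limma adjusted p = 1.45e-08). PMAIP1 fell from 16539 ± 591 to 1830 ± 145 normalized counts and BBC3 from 9311 ± 1188 to 2560 ± 112 (SD, n = 3). CASP6, an effector caspase, rose by 0.86 (SE 0.072), and TRIAP1, a survival factor, by 0.54 (SE 0.058).

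Metabolic and other known targets were split, with 11 of 25 higher, 11 lower and 3 not called, and a median of 0.15. The 11 lower include SPATA18, which passed the filter through the DMSO libraries alone (10.8, 14.5 and 14.2 normalized counts, against 4.63, 0 and 1.81 with BEZ235); without it 10 of 24 were lower and the median was 0.18. It was chosen after its values were seen. GDF15, a secreted stress hormone, fell by 5.12 (SE 0.075, limma adjusted p = 2.02e-11), from 10950 ± 604 to 313 ± 19.6 normalized counts. SESN2, a leucine sensor that restrains mTOR, had 4806 ± 651 with DMSO and 436 ± 23.1 with BEZ235. CES2, a carboxylesterase, rose by 1.59 (SE 0.071), and PLTP, a phospholipid transfer protein, by 1.29 (SE 0.059).

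Of 20 tested genes in a chosen list of paralogs of the 9 genes, 12 fell, 5 rose and 3 did not pass the test, with a median of -0.47. The list was not meant to hold every relative. BTG1 stands in this list and in that of arrest genes. Besides those already given, PPM1F, a phosphatase of the PPM1D family, rose by 0.51 (SE 0.060), and CRYZL1, an oxidoreductase related to TP53I3, by 0.57 (SE 0.066).

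**Figure D4:**
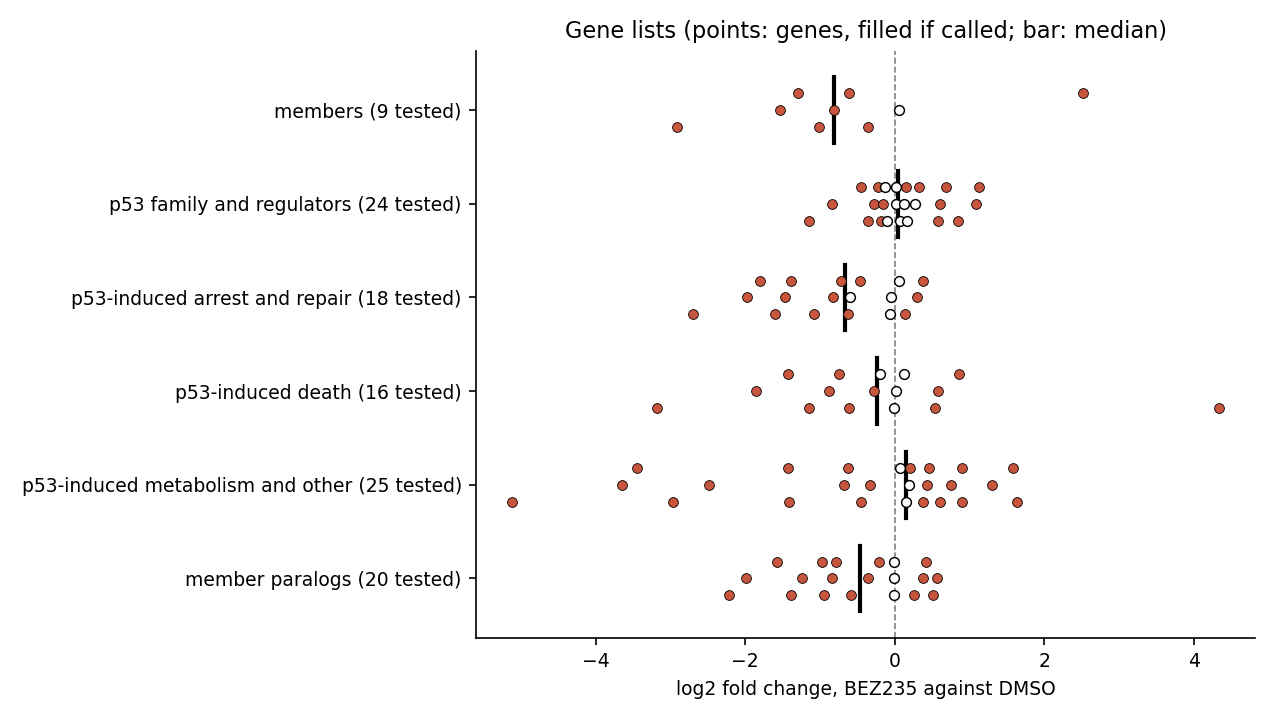
Log2 fold change of BEZ235 against DMSO (horizontal axis) for the tested genes of the 9-gene group and the 5 lists (points, filled where called), with each list's median as a bar. The medians run from -0.81 for the 9 genes to 0.15 for metabolic and other targets; the point farthest to the right is IGFBP3.

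IGFBP3, chosen after its values were seen, is a growth factor binding protein near the floor in DMSO, with 2.16, 14.5 and 40.1 normalized counts, against 234, 305 and 231 with BEZ235. It passed the filter through the BEZ235 libraries, since only 2 DMSO libraries reached 10, and 1 DMSO library lay below the 3.24 normalized counts that 3 reads amount to there. No fold is therefore given for it.

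For each member, the 2 genes with the nearest pattern were found by Euclidean distance between log2 values centred on their mean over the 6 libraries, among 14934 rows with 1 symbol and a mean of at least 100. Since the 6 libraries form 2 groups, a small distance mostly says that the changes were of like size. HNRNPM and KLHL35 lay nearest to TP53I3, at distances of 0.13 and 0.22. SKA1 and NFIL3 lay nearest to GADD45A, at 0.16 and 0.17, and VASH2 and YOD1 to TP53INP1, at 0.15 and 0.17. DENND5B and IL1RAP were nearest to ZMAT3, SNRPG and ZFAND6 to BTG2, and HELLS and LPGAT1 to RRM2B. PVT1 and CTSB were nearest to MDM4, FLYWCH2 and MIF-AS1 to PPM1D, and ASTE1 and TMEM117 to MDM2. PPM1D and FLYWCH2 had the smallest distance of these pairs, 0.028. MIF-AS1 is an antisense RNA, which cannot be told from its partner gene without strand. No member was among the nearest genes of another.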

How the data were processed

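RNA was measured in 6 libraries, 3 per group. The authors deposited 1 table of normalized gene counts, a signal that is never negative; the tools named in the submitters' processing notes, without their roles, are STAR 2.4.0, SAMtools, Picard, FastQC and DESeq, with the build hg38. Rows are FASTDB genes, per the file headers, with hg38 coordinates. Control columns were taken as the DMSO samples of the same number, since no other controls exist among the samples. How reads were counted, and whether by strand, is not stated, so overlapping rows may share reads.

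The deposited signal was a whole multiple of 1 step per library (0.835 to 1.16 normalized counts per read) for 100.0% of values, within 0.01. A count of 0 allows up to 3 reads, or 2.50 to 3.47 normalized counts, for counting error only. Genes with at least 10 normalized counts in at least 3 libraries were tested with limma 3.58.1 (R 4.3.3, mean-variance trend) on log2(normalized count + 1), two-sided, with Benjamini-Hochberg adjustment over all tested genes and a threshold of 0.05. Fold changes are on this scale, which understates changes of low genes. edgeR 4.0.16 and DESeq2 1.42.0 on recovered reads were alternatives. The limma fit was tested on simulated counts, in which far fewer genes changed than were called here. Their spread between replicates was set by a formula, not estimated from these libraries, and all simulated libraries had equal depth. Under those settings the fit recovered 64.2% of 1.5-fold, 88.1% of 2-fold and 98.5% of 4-fold changes, and called 0.021% of unchanged genes. Its rates at the spread of these libraries were not tested.

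The members and lists were chosen with earlier results of these data known. Named genes are the members, CDKN1A, RRM2, GADD45B and FAM228B. Also named are the 2 rises and 2 falls with the smallest adjusted p in each list, and the 2 nearest genes of each member. Others are marked, apart from cell type markers, genes that overlap a member's row (NDUFAF6, FMOD) and GADD45G. The overlapping genes and GADD45G were named after their values were seen. So were COL1A1, COL3A1 and PDGFRB, which were named for their abundance. NKX2-2, NR0B1 and CD99 are examples from their marker list. SETD8, an older name of KMT5A, matched no row. 1 gene of the lists is not reported here.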

Additional observations from a re-analysis of the deposited data

How the results depend on the processing

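The alternatives were TMM, quantile and total-count scaling, edgeR and DESeq2 on recovered reads, limma without its trend, a replicate block, pseudocounts of 0.5 and 10, a low-count filter at 50 or none, and leaving out each library, 17 in all. In every one, 7 members were called lower and 1 higher, and the count of all called genes ran from 14285 to 16102. MDM2 was not called in any of them (adjusted p from 0.088 to 0.638), and its log2 fold change was -0.042 with total-count scaling. That scaling moved the median of all tested genes by -0.10. The log2 fold change ran from -3.01 to -2.86 for GADD45A. With the replicate number as a block the counts stayed at 7 members lower and 1 higher. Same-numbered libraries had correlations of deviations of -0.04, 0.02 and 0.04. These values show no sign that the numbers pair the libraries, but 3 pairs cannot settle it. Leaving out each library moved the difference in the RRM2B to RRM2 ratio between -0.088 and 0.046; it was 0.015 without DMSO replicate 2. The other 3 ratios kept their direction. The lowest value of any member, 328 normalized counts of ZMAT3, was far above the 2.50 to 3.47 that 3 reads amount to. With 3 libraries per group the exact tests of the ratios cannot reach 0.05.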
